A study of Mus musculus with 8 samples.

Results

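The genes described here are 10 genes of the p53 pathway and of cell cycle arrest: *Cdkn1a*, *Ccng1*, *Mdm2*, *Trp53*, *Cdkn1b*, *Cdkn1c*, *Gadd45a*, *Gadd45g*, *Btg2* and *Ccnd1*. They were chosen by name, and all 10 were found among the 50686 genes of the count table and passed the filter on low counts, which left 16018 genes to test. The counts came from mRNA sequencing of the ventral hippocampus of male C57B6/J mice (C57BL/6J in the study's methods) aged 8 weeks. The 4 vehicle mice (replicates 1 to 4) and the 4 corticosterone mice (replicates 5 to 8, 3 mg/kg, the main glucocorticoid of rodents) received 1 injection and were killed 3 h later. No genetic change or other treatment is given for either group, each library is 1 mouse, and the mice were housed 4 to a cage, though the sources used here do not say which mice shared one. The question was which genes of this set differed between the groups at 3 h.

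The tumour suppressor p53, encoded by *Trp53*, is a transcription factor that is held low by the ubiquitin ligase MDM2 and stabilised by DNA damage and other stresses. Its target *Cdkn1a* encodes p21, which inhibits cyclin-dependent kinases and blocks entry into S phase, and *Mdm2* is itself a p53 target, which closes a feedback loop. *Cdkn1a* is also raised by glucocorticoids in many tissues without any DNA damage. Most cells of the adult hippocampus no longer divide, apart from progenitors of the dentate gyrus, oligodendrocyte precursors and other glial or vascular cells, so that these genes are also read in cells that have left the cell cycle.

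Libraries held 17492159 to 19931987 reads on genes, and the markers of hippocampal neurons, 8 of 8 tested, were all expressed. *Fkbp5*, a glucocorticoid target used here as a check of the treatment, was 1708 to 2371 normalized counts (reads brought to a common library size) after vehicle and 3175 to 3508 after corticosterone, and it was the only gene of the 16018 with an adjusted p value under 0.05 from edgeR's quasi-likelihood test (0.0481, Benjamini-Hochberg; 1 gene or 0.00624% of those tested). With 1 mouse left out in turn, its adjusted p value ranged from 0.00224 to 0.331. The libraries were not cleanly split by treatment. On the first principal component, which held 33.7% of the variance, corticosterone replicate 5 (score -19.2) lay with vehicle replicates 1 to 3 (-24.8 to -8.33), and vehicle replicate 4 (5.11) lay towards corticosterone replicates 6 to 8 (18.9 to 23.5). The share of ambiguous reads, those that fit more than 1 gene, was 1.40% to 1.67% after vehicle and 1.25% to 1.48% after corticosterone. Results are therefore given with and without single libraries.

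At the adjusted threshold, 0 of the 10 genes differed between corticosterone and vehicle. At an unadjusted p value under 0.05 in the same fit there were 4: *Cdkn1a* and *Ccng1* were higher after corticosterone, and *Trp53* and *Ccnd1* were lower. Over all genes tested, 9.03% had such a p value, 4.51% with a higher and 4.52% with a lower value after corticosterone. The 4 corticosterone values lay apart from the 4 vehicle values in 2 of the 10 genes, *Cdkn1a* and *Ccnd1*, and in 3.66% of all genes. The median log2 fold change of the 10 genes was 0.03, against 0.00 over all genes tested. DESeq2 also called 0 of the 10 at its adjusted threshold, and the same 4 genes had an unadjusted p value under 0.05 with it. *Ccng1* had an adjusted p value of 0.116 in this DESeq2 fit. The study, with another version of that tool, listed *Ccng1* among glucocorticoid-regulated genes that lacked a receptor binding site.

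**Figure D1:**
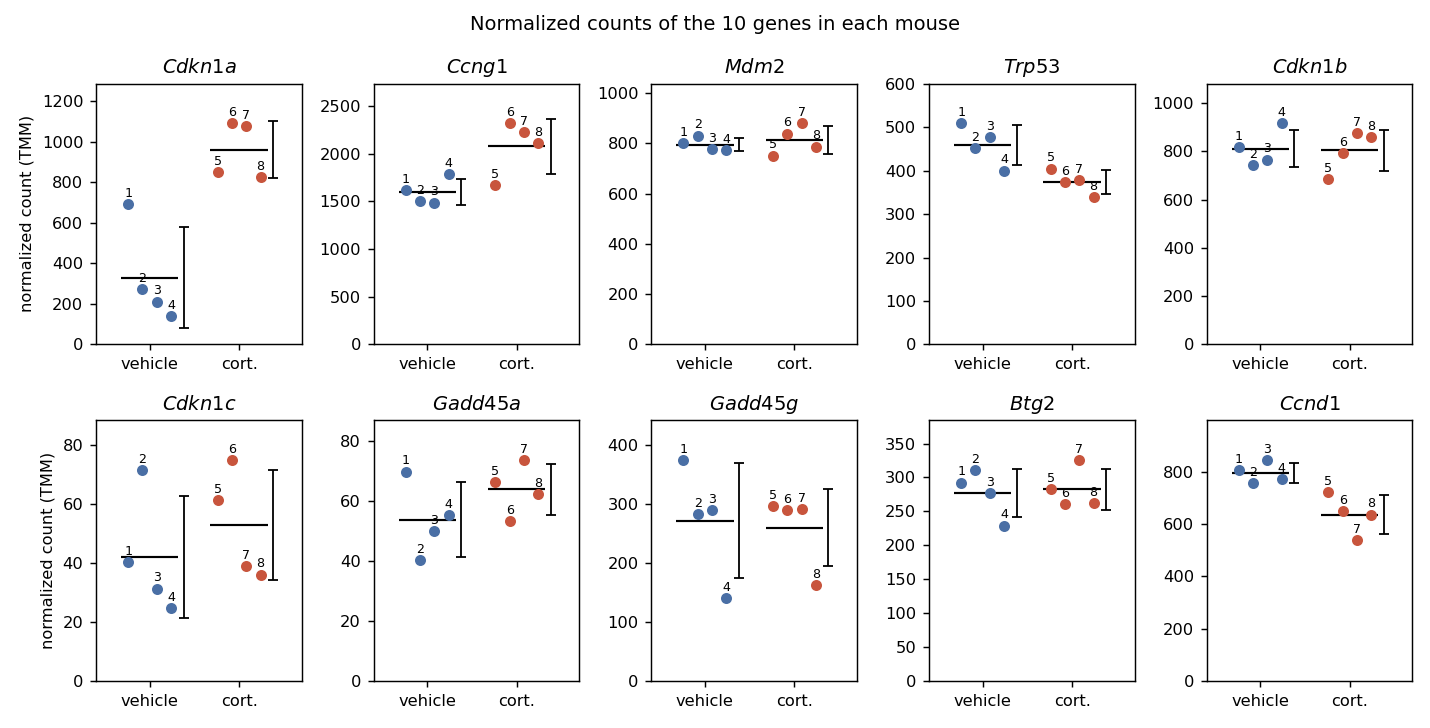
Normalized counts (TMM) of the 10 genes by mouse, with the replicate number beside each point, the group mean as a line and the SD as a bar to its right. In *Cdkn1a* the corticosterone mice (827 to 1092) lay above every vehicle mouse (139 to 694), and in *Ccnd1* they lay below them (538 to 722 against 759 to 845).

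*Cdkn1a* (ENSMUSG00000023067) lies on chromosome 17 of GRCm38 from 29090976 to 29100727 on the forward strand. It had 694, 274, 210.1 and 139 normalized counts in vehicle replicates 1, 2, 3 and 4. In corticosterone replicates 5, 6, 7 and 8 it had 852, 1092, 1076 and 827. Every corticosterone mouse was above every vehicle mouse, and vehicle replicate 1 stood between the other vehicle mice and the corticosterone mice. The means were 329 ± 249 (SD, n = 4) and 962 ± 142 (SD, n = 4), a log2 fold change of 1.55 (standard error 0.35, 95% interval 0.78 to 2.31) with an unadjusted p value of 0.000779 and an adjusted p value of 0.250 in edgeR. This was the 8th highest log2 fold change of the 16018 genes tested but only the 48th smallest p value. An exact permutation test on the log2 values gave a two-sided p of 0.029, the smallest that 4 mice against 4 allow.

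The spread of *Cdkn1a* differed between the groups. Its coefficient of variation was 75.7% among the vehicle mice, above that of 99.8% of the genes tested, and 14.7% among the corticosterone mice, above that of 62.2%. Counting error at its mean count would give 3.96%. Without vehicle replicate 1, *Cdkn1a* was higher after corticosterone by 2.21 on the log2 scale (standard error 0.20, adjusted p = 0.00215 in edgeR), in a fit that called 0.117% of all genes. Without corticosterone replicate 5 the difference was 1.60 (adjusted p = 0.0188, in a fit that called 10.2% of all genes), and with no filter on low counts it was 1.54 (adjusted p = 4.1e-05, in a fit that called 0.287% of all genes). In the other 6 fits with 1 mouse left out, *Cdkn1a* did not reach the adjusted threshold.

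Among the vehicle mice, other measures were also highest in replicate 1. *Fkbp5* had 2371 normalized counts there and 1708 to 1981 in the other vehicle mice. The summed CPM (counts scaled to the TMM effective library size) of 8 oligodendrocyte markers was 5345, 3962, 3373 and 3026 in vehicle replicates 1 to 4, the same order as *Cdkn1a*, but 3663, 2966, 3061 and 3239 in corticosterone replicates 5 to 8, where replicates 6 and 7, the highest in *Cdkn1a*, were lowest. The 6 choroid plexus markers, 0 of them at 0 reads in every library, had this order among the vehicle mice too, with a sum of 68.3, 41.9, 25.8 and 21.5 CPM, but not among corticosterone replicates 5 to 8 (72.0, 61.3, 32.2 and 46.9 CPM). Of the 8 oligodendrocyte markers, 0 were higher and 3 lower after corticosterone at an unadjusted p value under 0.05, and of the 5 choroid plexus markers tested, 2 were higher and 0 lower. The part of these cells in the values of *Cdkn1a* was not tested. In bulk tissue, fewer cells of a type and less RNA per cell cannot be told apart.

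*Ccng1* (ENSMUSG00000020326, chromosome 11 from 40748552 to 40755311, reverse strand) encodes cyclin G1, a p53 target that recruits the phosphatase PP2A to MDM2. It had 1621, 1507, 1487 and 1785 normalized counts in vehicle replicates 1 to 4 and 1668, 2319.8, 2225 and 2112 in corticosterone replicates 5 to 8. Corticosterone replicates 6 to 8 were above every vehicle mouse, whereas replicate 5 was below vehicle replicate 4, so that the groups overlapped (exact permutation test, two-sided p = 0.0571). *Ccng1* thus had a log2 fold change of 0.38 (standard error 0.10, 95% interval 0.16 to 0.60), with an unadjusted p value of 0.00245 and an adjusted p value of 0.348 in edgeR. Without corticosterone replicate 5 it was 0.47 (adjusted p = 0.0108), and with each library's ambiguous share added to the model it was 0.02 (standard error 0.10, adjusted p = 0.957). Since that share was mostly lower after corticosterone, the share and the treatment cannot be fully told apart.

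*Mdm2* (ENSMUSG00000020184, chromosome 10 from 117688875 to 117710758, reverse strand) had the smallest coefficients of variation of the 10 genes, 3.38% after vehicle and 6.92% after corticosterone. After vehicle it had 802, 831, 777 and 772 normalized counts, and after corticosterone 752, 839, 880.1 and 788. The range after corticosterone enclosed that after vehicle. The fitted log2 difference was 0.03 (standard error 0.075), and the 95% interval ran from -0.13 to 0.20, a fold of 0.915 to 1.15 (adjusted p = 0.873 in edgeR).

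*Trp53* itself (ENSMUSG00000059552, chromosome 11 from 69580359 to 69591873, forward strand) had 509, 453, 477 and 400.5 normalized counts after vehicle and 405, 374, 378 and 339 after corticosterone. Only vehicle replicate 4 and corticosterone replicate 5 crossed (exact permutation test, two-sided p = 0.0571). The means were 460.0 ± 45.9 (SD, n = 4) and 374 ± 27.2 (SD, n = 4), a log2 fold change of -0.30 (standard error 0.098, 95% interval -0.51 to -0.09), with an unadjusted p value of 0.00932 and an adjusted p value of 0.468 in edgeR. Its adjusted p value was 0.0430 without corticosterone replicate 5, and with the ambiguous share in the model its log2 fold change was -0.06 (adjusted p = 0.898). The p53 protein, whose amount is set mainly by its turnover, was not measured.

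In the RefSeq promoter table for GRCm38.p6, which gives 250 bases before and 50 after a start site, 8 of the 10 genes had a window, 9 windows in all, with *Cdkn1c* and *Ccnd1* not matched. These were searched on both strands for the p53 half-site consensus (named only, since it has degenerate letters and is its own reverse complement), for ACANNNTGT, the core of the glucocorticoid response element, and for AGAACA, its half-site. A p53 half-site was found in the windows of 5 genes, against 8.36% of all 32851 windows: 2 in *Cdkn1a* and 1 each in *Ccng1*, *Mdm2*, *Trp53* and *Gadd45a*. ACANNNTGT (6.85% of all windows) and AGAACA (19.0%) were found in 0 of the 9 windows. The genes were named for their link to p53, so the share with a half-site is a description of the choice. For the 4 genes described so far, the windows that hold a match are shown with it in capitals, to place these letters beside the start sites of p53's own gene, its regulator *Mdm2* and 2 further p53 targets. *Cdkn1a* has a second window, chr17:29093519-29093818, with 0 matches, which is not printed.

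Cdkn1a, chr17:29090729-29091028, forward strand: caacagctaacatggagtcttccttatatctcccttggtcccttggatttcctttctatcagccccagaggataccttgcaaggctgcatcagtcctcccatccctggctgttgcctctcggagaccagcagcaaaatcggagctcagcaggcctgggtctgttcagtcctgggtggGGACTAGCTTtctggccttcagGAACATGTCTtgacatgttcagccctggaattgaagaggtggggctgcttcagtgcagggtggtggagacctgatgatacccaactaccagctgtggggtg

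Ccng1, chr11:40755237-40755536, reverse strand: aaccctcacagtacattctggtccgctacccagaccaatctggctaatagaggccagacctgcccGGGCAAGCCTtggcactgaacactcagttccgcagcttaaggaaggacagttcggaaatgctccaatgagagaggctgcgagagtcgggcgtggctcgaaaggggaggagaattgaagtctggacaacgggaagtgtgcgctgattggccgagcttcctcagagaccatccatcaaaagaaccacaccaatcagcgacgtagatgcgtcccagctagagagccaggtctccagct

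Mdm2, chr10:117710709-117711008, reverse strand: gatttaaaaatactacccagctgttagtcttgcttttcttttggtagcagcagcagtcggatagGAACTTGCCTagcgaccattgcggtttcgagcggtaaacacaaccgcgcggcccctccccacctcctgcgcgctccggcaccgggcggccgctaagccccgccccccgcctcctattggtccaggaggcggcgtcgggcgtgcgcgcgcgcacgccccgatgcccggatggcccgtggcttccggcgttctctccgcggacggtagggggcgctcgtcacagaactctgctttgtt

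Trp53, chr11:69580109-69580408, forward strand: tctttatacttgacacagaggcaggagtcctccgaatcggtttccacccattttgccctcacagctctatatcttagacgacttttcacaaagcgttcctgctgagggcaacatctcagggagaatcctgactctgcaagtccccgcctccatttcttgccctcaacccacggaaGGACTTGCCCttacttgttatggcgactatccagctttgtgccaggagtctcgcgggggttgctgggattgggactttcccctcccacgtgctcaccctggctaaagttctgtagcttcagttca

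The matches of *Cdkn1a* began 73 and 51 bases before the start site of the window shown, which is not that of its second window. Those of *Ccng1*, *Mdm2* and *Trp53* began 185, 186 and 75 bases before the start site of their windows. A match is a description of letters and was not tested for binding, and no match in a window of 300 bases says nothing of sites farther away.

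The other 2 CDK inhibitors of the Cip/Kip family had overlapping groups. *Cdkn1b* (ENSMUSG00000003031, chromosome 6 from 134920401 to 134925513) encodes p27, which holds cells in quiescence. It had 818, 744, 766 and 916 normalized counts after vehicle and 687, 795, 875 and 861 after corticosterone. The fitted log2 difference was -0.01 (standard error 0.096, 95% interval -0.22 to 0.19, adjusted p = 0.968 in edgeR). With the ambiguous share in the model it was -0.33 (standard error 0.10, unadjusted p = 0.00494, adjusted p = 0.225 in edgeR), outside that interval. *Cdkn1c* (ENSMUSG00000037664, chromosome 7 from 143458339 to 143461050), an imprinted gene, encodes p57. It was the lowest of the set, with 40.2, 71.5, 31.3 and 24.7 normalized counts after vehicle and 61.4, 74.8, 38.9 and 36.0 after corticosterone. The groups overlapped and the interval was wide, from -0.38 to 1.03 around a log2 fold change of 0.33 (adjusted p = 0.707), so that at 25 to 73 reads per library both the 0.38 of *Ccng1* and the -0.30 of *Trp53* lay inside it. With 1 mouse left out in turn it ranged from 0.12 (without corticosterone replicate 6) and 0.14 (without vehicle replicate 4) to 0.71 (without vehicle replicate 2), and with the ambiguous share in the model it was 1.13 (unadjusted p = 0.0354, adjusted p = 0.390 in edgeR).

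*Gadd45a* and *Gadd45g* encode small proteins that bind p21 and stress kinases and act in growth arrest, DNA repair and DNA demethylation. *Gadd45a* (ENSMUSG00000036390, chromosome 6 from 67035096 to 67037457) is a p53 target. Its normalized counts were 69.7, 40.1, 49.8 and 55.2 after vehicle and 66.2, 53.1, 73.5 and 62.3 after corticosterone. The highest vehicle mouse, replicate 1, was above 3 of the 4 corticosterone mice, and the log2 fold change was 0.25 (standard error 0.19, 95% interval -0.17 to 0.67, adjusted p = 0.640 in edgeR). It was 0.13 without vehicle replicate 2 and 0.40 without vehicle replicate 1. *Gadd45g* (ENSMUSG00000021453, chromosome 13 from 51846678 to 51848468) had 375, 283, 290.3 and 141 normalized counts after vehicle and 296, 290.5, 292 and 163 after corticosterone. In each group 1 mouse, vehicle replicate 4 and corticosterone replicate 8, lay far below the other 3. *Gadd45g* had a log2 fold change of -0.07 (standard error 0.25, 95% interval -0.61 to 0.47, adjusted p = 0.930). Its direction turned without vehicle replicate 1 (0.12) and without corticosterone replicate 8 (0.10), and with the ambiguous share in the model it was 0.78 (unadjusted p = 0.0258 in edgeR).

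*Btg2* (ENSMUSG00000020423, chromosome 1 from 134075170 to 134079120) is a p53 target and an antiproliferative gene that neurons also express as an early response to activity. It had 292, 310.3, 277 and 229 normalized counts after vehicle and 282, 260.2, 326 and 262 after corticosterone. The ranges overlapped over most of their length, and the log2 fold change was 0.03 (standard error 0.12, 95% interval -0.23 to 0.28, adjusted p = 0.937 in edgeR). Since *Btg2* and the *Gadd45* genes respond to neuronal activity, 10 immediate early genes were looked at beside them. Their sum was 197 to 285 CPM after vehicle and 162 to 250.4 CPM after corticosterone, and 0 of the 10 were higher and 1 lower at an unadjusted p value under 0.05. Their median log2 fold change was -0.21, and 1 of the 10 was positive. The sums were 201, 233, 285 and 197 CPM in vehicle replicates 1 to 4 and 250.4, 168, 223 and 162 CPM in corticosterone replicates 5 to 8. Vehicle replicate 4 and corticosterone replicate 8 were the lowest of their group in both this sum and *Gadd45g*, and corticosterone replicate 5 was the highest of its group in both, whereas vehicle replicate 1 was highest in *Gadd45g* with a sum close to the lowest. The part of neuronal activity in the values of *Gadd45g* was not tested.

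*Ccnd1* (ENSMUSG00000070348, chromosome 7 from 144929931 to 144939925, reverse strand) encodes cyclin D1, which activates CDK4 and CDK6 in G1 and so acts against the CDK inhibitors. It had 806, 759, 845 and 771 normalized counts in vehicle replicates 1 to 4, and 722, 649, 538 and 637 in corticosterone replicates 5 to 8. All 4 corticosterone mice were below all 4 vehicle mice (exact permutation test, two-sided p = 0.029). The means were 795 ± 38.9 (SD, n = 4) and 636 ± 75.7 (SD, n = 4), a log2 fold change of -0.32 (standard error 0.092, 95% interval -0.52 to -0.12), with an unadjusted p value of 0.00412 and an adjusted p value of 0.407 in edgeR. Without corticosterone replicate 5 it was -0.39 (adjusted p = 0.0186). With the ambiguous share in the model it was -0.15 (adjusted p = 0.670).

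Summed microglial and endothelial markers were lower in the corticosterone libraries, as was *Ccnd1*, but not in the same order of mice. The summed level of 6 microglial markers was 368 to 380 CPM after vehicle and 291 to 365 CPM after corticosterone, and that of 6 endothelial markers 116 to 125 CPM and 100.3 to 112 CPM. Neither pair of ranges overlapped. Corticosterone replicate 7, lowest in *Ccnd1* (538 normalized counts), had the highest endothelial sum of its group (112 CPM). Corticosterone replicate 6, lowest in both sums (291 and 100.3 CPM), had 649 normalized counts of *Ccnd1*. Of these markers, 2 of 6 microglial and 2 of 6 endothelial genes were lower at an unadjusted p value under 0.05 and 0 were higher. For 5 markers of oligodendrocyte precursors the sums were 214 to 247 CPM and 196 to 245 CPM, with 3 lower and 1 higher. Mostly negative log2 fold changes were not particular to these lists. Of the oligodendrocyte markers 0 of 8 were positive, and of the astrocyte markers 1 of 6. Of the neuronal markers 4 of 8 were positive, and of the choroid plexus markers 4 of 5 tested. None of these lists held a marker at 0 reads in every library. Their part in the lower values of *Ccnd1* was not tested. Exons of *Ccnd1* also overlap those of *LTO1* on the opposite strand over 1100 bases, or 23.4% of its exon length, and *LTO1* had 219 to 299 reads per library. Opposite-strand overlaps also concern *Cdkn1c* (30.7% of its exon length), *Gadd45a* (19.1%) and *Cdkn1a* (7.68%), and the strand setting of the counting is not given in the sources used here.

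**Figure D2:**
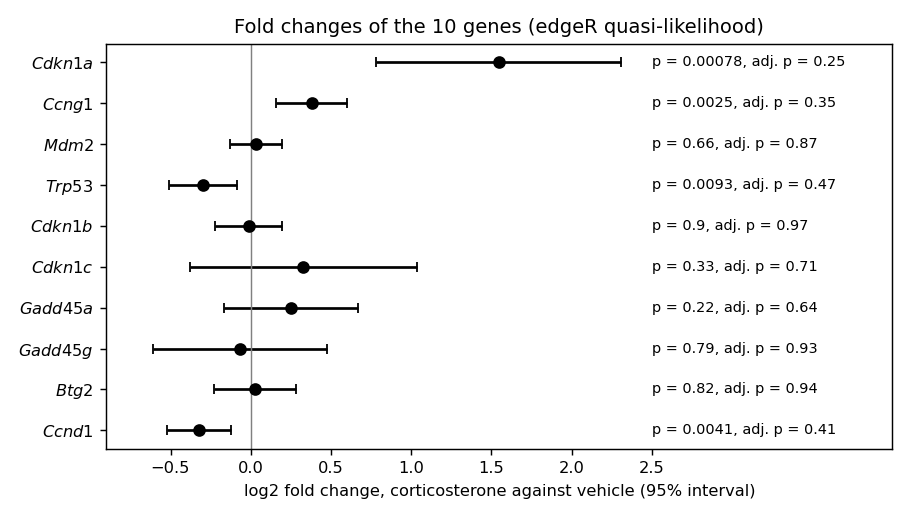
Log2 fold changes of corticosterone against vehicle with their 95% intervals from edgeR's quasi-likelihood fit, with unadjusted and adjusted p values at the right. The intervals of *Cdkn1a* and *Ccng1* lie above 0, those of *Trp53* and *Ccnd1* lie below it, and the other 6 include it.

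The 4 genes with an unadjusted p value under 0.05 were the same 4 in 14 of the 16 alternative settings. Without vehicle replicate 2 there were 5, with *Cdkn1c* added, in a fit that gave 1075 genes such a p value, against 1446 with all mice. With the ambiguous share in the model there were also 4, but only *Cdkn1a* was among both, and the others were *Cdkn1b*, *Cdkn1c* and *Gadd45g*. That fit gave an unadjusted p value under 0.05 to 11.7% of all genes. In the fit without corticosterone replicate 5, all 4 genes passed the adjusted threshold, where 10.2% of all genes did.

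**Figure D3:**
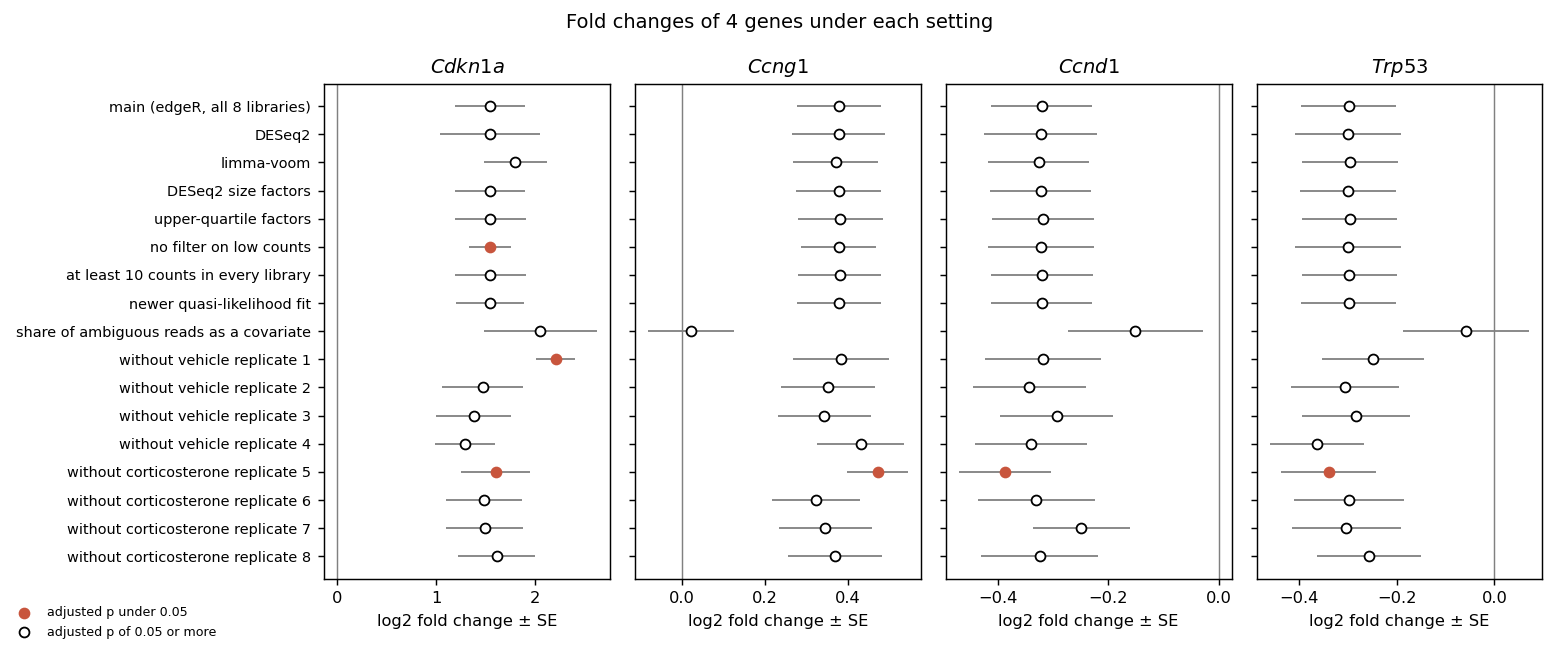
Log2 fold change with its standard error of *Cdkn1a*, *Ccng1*, *Ccnd1* and *Trp53* under each setting, filled where the adjusted p value is under 0.05. *Cdkn1a* runs from 1.29 to 2.21, and with the ambiguous share in the model *Ccng1* is at 0.02 and *Trp53* at -0.06.

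Per kilobase of exon sequence, *Ccng1* was the highest of the 10 genes in both groups, with 23.8 ± 2.03 CPM per kb after vehicle and 31.0 ± 4.29 after corticosterone (SD, n = 4 each). The vehicle range of *Ccng1* (22.1 to 26.6 CPM per kb) did not overlap that of the next gene, *Gadd45g* (12.1 ± 4.32, range 6.28 to 16.7). *Cdkn1b* (9.31 ± 0.881), *Ccnd1* (8.82 ± 0.432) and *Mdm2* (8.18 ± 0.277) followed, each overlapping its neighbour in this order. *Mdm2* and the next gene, *Trp53* (5.94 ± 0.592), did not overlap. *Btg2* (5.28 ± 0.666), *Cdkn1a* (4.84 ± 3.67), *Gadd45a* (1.59 ± 0.365) and *Cdkn1c* (1.07 ± 0.531) each overlapped the gene before them. *Cdkn1a* was thus the 8th of the 10 genes after vehicle, with a range of 2.05 to 10.2 CPM per kb, and the 2nd after corticosterone, with 14.1 ± 2.08 CPM per kb. After corticosterone, *Ccng1* and *Cdkn1a* and, farther down, *Trp53* and *Gadd45a* were the neighbours whose ranges did not overlap. With the length of the longest transcript in place of all exons, *Cdkn1a* was 6th and 2nd, with means of 8.27 and 24.2 CPM per kb. With that length, the ranges of *Ccng1* (from 24.8 CPM per kb) and *Cdkn1a* (up to 27.4 CPM per kb) after corticosterone overlapped.

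**Figure D4:**
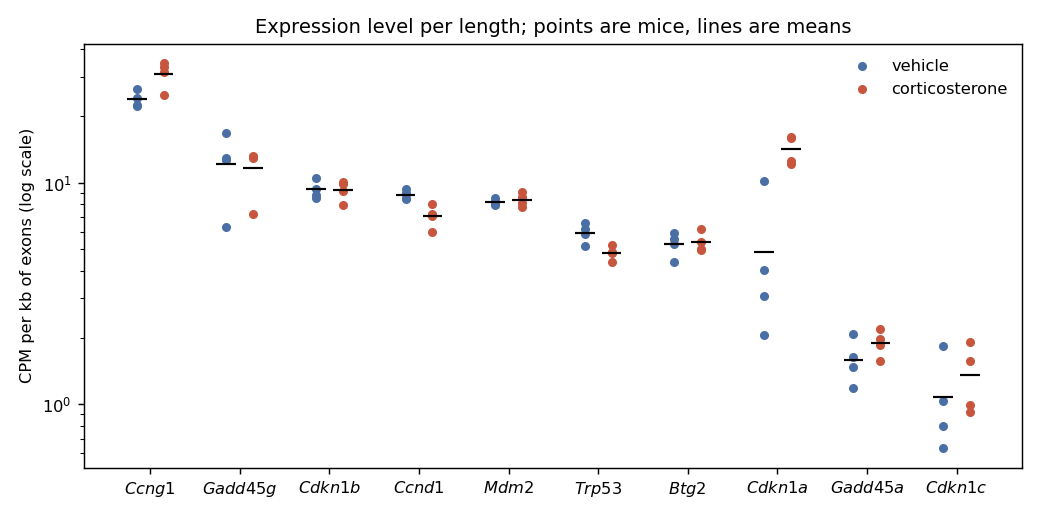
CPM per kb of exons (log scale) of each gene in each mouse, with group means as lines, in the order of the vehicle means. *Ccng1* is highest, *Gadd45a* and *Cdkn1c* are lowest, and *Cdkn1a* has means of 4.84 and 14.1 CPM per kb.

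Further genes of the pathway were read from 8 lists of 109 genes in all, of which 98 passed the filter. With the 10 genes left out, 8 of the remaining 88 tested genes (9.09%) had an unadjusted p value under 0.05, 6 higher and 2 lower, against 9.03% of all genes, and 0 passed the adjusted threshold in edgeR. The 36 p53 target genes, a list that holds 5 of the 10 genes, had 34 tested genes, of which 6 were higher and 1 lower at that level, with a median log2 fold change of 0.04 and 21 positive and 13 negative values, where 50.7% of all genes tested were positive. Besides *Cdkn1a* and *Ccng1*, the higher ones were *Trp53inp1* (a stress-induced partner of p53), *Apaf1* (the core of the apoptosome), *Pmaip1* (the proapoptotic NOXA) and *Sesn1* (sestrin 1, a regulator of mTORC1). The lower one was *Gtse1*, a G2 and S phase protein that counters p53.

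*Trp53inp1* had 312, 166, 185 and 194 normalized counts in vehicle replicates 1 to 4 and 244, 431, 422 and 324 in corticosterone replicates 5 to 8. As in *Cdkn1a*, vehicle replicate 1 was the highest vehicle mouse, and here it lay above corticosterone replicate 5. Its log2 fold change came to 0.73 (standard error 0.21, adjusted p = 0.407 in edgeR). Its adjusted p value was 0.0178 without corticosterone replicate 5, a fit in which *Apaf1*, *Pmaip1* and *Cdkn2d* also passed, and 0.0184 with no filter on low counts. With all mice, the log2 fold changes of the other 4 were 0.37 for *Apaf1*, 1.14 for *Pmaip1*, 0.21 for *Sesn1* and -0.80 for *Gtse1*, with adjusted p values of 0.451 to 0.532. *Pmaip1* and *Gtse1* rested on means of 12.5 to 44.3 normalized counts, and the groups overlapped in all 5 genes. With the ambiguous share in the model, of the 7 p53 targets only *Cdkn1a* and *Sesn1* (0.28) kept an unadjusted p value under 0.05 in edgeR, while *Trp53inp1* was at 0.39 and *Pmaip1* at 0.74, *Ccng1* and *Apaf1* were near 0, and *Gtse1* turned to 0.15. With 1 mouse left out in turn, *Sesn1* and *Pmaip1* each lost that level in 5 of 8 fits and *Gtse1* in 4, while *Trp53inp1* and *Apaf1* lost it in 0.

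Of 16 genes for p53 and its direct regulators, all tested, *Trp53bp1* (a DNA damage adaptor) was higher with a log2 fold change of 0.16, *Trp53* was the only lower one, and the median was 0.03. Among 5 tested CDK inhibitors, *Cdkn2d*, which encodes p19 of the INK4 family, was lower with a log2 fold change of -0.23 and *Cdkn1a* was higher. Neither *Trp53bp1* nor *Cdkn2d* held that level throughout: in edgeR, the former lost the unadjusted threshold in 6 of 8 fits with 1 mouse left out, with no filter on low counts, and with the ambiguous share in the model, where its log2 fold change was 0.050 (unadjusted p = 0.583), and the latter lost it in 6 of 8 such fits, with at least 10 counts in every library, and with the ambiguous share, where its direction turned (0.055). *Cdkn2a*, *Cdkn2b* and *Cdkn3* did not pass the filter and had at most 12 reads in any library. In the 16 genes of G1 cyclins, their kinases and the retinoblastoma family, *Ccnd1* was the only one at an unadjusted p value under 0.05, with 4 positive and 12 negative log2 fold changes and a median of -0.08.

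The *Gadd45* and Btg/Tob families had 0 of 8 tested genes at that level, and the smallest p values were those of *Tob2* (log2 fold change 0.24, unadjusted p = 0.0528 in edgeR) and *Gadd45b* (-0.34, unadjusted p = 0.0651 in edgeR). Both were under 0.05 with no filter on low counts and in 2 of 8 fits with 1 mouse left out, and *Tob2* also with limma-voom and with the ambiguous share in the model (0.45, unadjusted p = 0.0123 in edgeR). In the family of 3 cyclins G and I, *Ccng2* and *Ccni* each had a log2 fold change of -0.06 and did not reach that level. Of 13 tested proliferation markers, *Birc5* (survivin, needed for chromosome segregation) was higher, from 8.84 ± 3.32 to 18.8 ± 5.62 normalized counts (SD, n = 4 each), and 0 were lower, with 10 positive and 3 negative values. *Cdk1*, *Ccnb1*, *Bub1*, *Aurkb* and *Ube2c*, which mark dividing cells, did not pass the filter, with at most 23 reads in any library. The 14 FoxO-linked genes held 1 such gene, *Sesn1*. In the fit without corticosterone replicate 5, 25 of 99 list genes (25.3%) had an unadjusted p value under 0.05, against 29% of all genes in that fit.

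**Figure D5:**
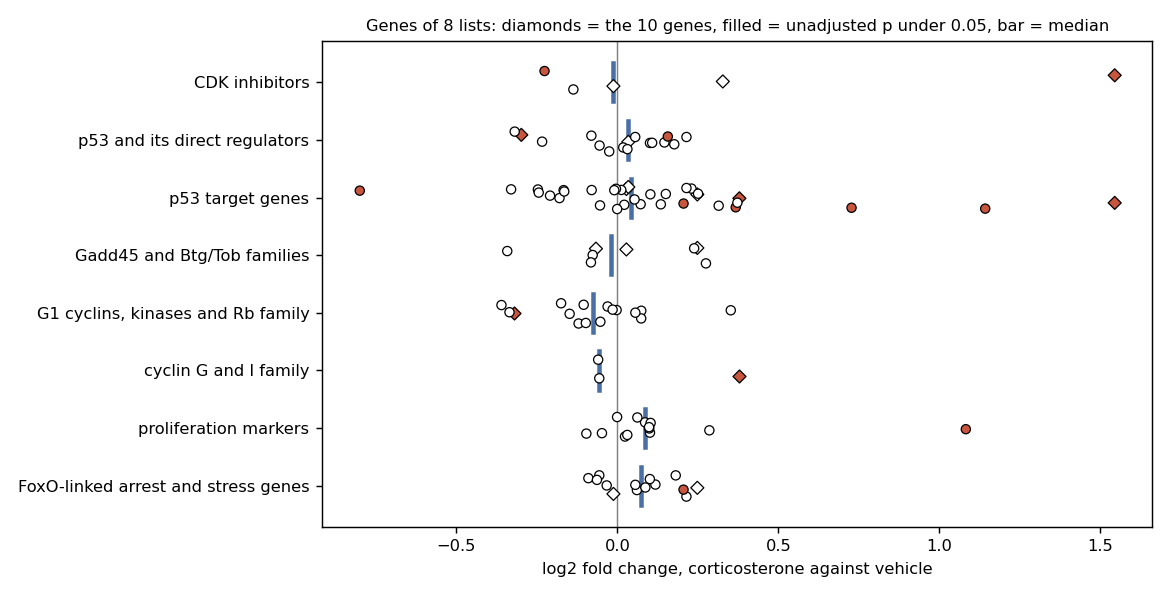
Log2 fold changes of the tested genes of 8 lists, with the median of each list as a bar, the 10 genes as diamonds and genes with an unadjusted p value under 0.05 filled. The medians lie between -0.08 and 0.09, and *Cdkn1a* is farthest from 0.

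Across the 8 libraries, the genes whose log2 CPM followed *Cdkn1a* most closely were *Ucp2* (Pearson's r = 0.99), *Rhou* (r = 0.99) and *Tcim* (r = 0.98), the highest of 14883 genes with a mean of at least 1 CPM. For *Ccng1* they were *Utp14a*, *Azin1* and *Ubxn4* (r = 0.99 each). These are descriptions over 8 points that fall into 2 treatment groups, and each gene was picked as among the closest of so many. The log2 fold changes of the 3 genes nearest to *Cdkn1a* were 0.56, 0.39 and 1.53, and of those nearest to *Ccng1* 0.26, 0.30 and 0.16, with adjusted p values of 0.220 to 0.545 in edgeR. *Tcim* (adjusted p = 0.00682) and *Ucp2* (0.0489) passed with DESeq2. Both also passed in edgeR with no filter on low counts (0.00276 and 0.0183) and without vehicle replicate 1 (0.0430 and 0.0410). Without corticosterone replicate 5, where 10.2% of all genes passed, all of these genes but *Ubxn4* (0.0584) did. With the ambiguous share in the model the genes nearest to *Ccng1* were, like *Ccng1*, close to 0 (-0.036 for *Utp14a*, 0.025 for *Azin1* and 0.0064 for *Ubxn4*).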

How the data were processed

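RNA-seq libraries of 8 ventral hippocampi were grouped by treatment as the labels give it. The authors made stranded mRNA libraries, sequenced 100 bp read pairs, aligned them to mm10 with GSnap and used HTSeq-count 0.6.0 to count reads by gene (strand setting and annotation release not given in the sources used here); the deposited values are raw counts. Rows that name no gene were left out (13.7% to 15.4% of each library). Symbols and lengths came from GENCODE M21 (50376 of 50686 identifiers). The 10 genes, the lists and the tests were chosen with earlier results of these data known.

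Counts were filtered with filterByExpr, scaled by TMM and tested with edgeR 4.0.16 (R 4.3.3; glmQLFit, glmQLFTest; Benjamini-Hochberg over 16018 genes, threshold 0.05). Standard errors are the log2 fold change over the root of F. Normalized counts are counts at the mean effective library size, and log2 CPM used a prior count of 2. Exact permutation tests covered the 70 assignments of 4 against 4. Alternatives were DESeq2 1.42.0 (the study used another version of this tool), limma-voom (limma 3.58.1), other scalings and filters, a newer edgeR fit, each library's ambiguous share as a covariate, and each mouse left out. The scripts were tested on simulated data. Named were the 10 genes, list genes at an unadjusted p under 0.05 (otherwise the 2 smallest), the 3 genes most like *Cdkn1a* and *Ccng1*, and *Fkbp5*; *Ccng2*, *Ccni*, *LTO1* and the list genes that failed the filter were added after their values were seen.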

Additional observations from a re-analysis of the deposited data

Results flagged for a closer look

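In 20 sets of 4 values (the 10 genes in each group), the gap between an outermost mouse and its nearest neighbour, over the range of the 4, passed Dixon's 95% critical value in 1, and about 1 in 20 is what chance alone would give. *Gadd45g* had 163 normalized counts in corticosterone replicate 8 and 290.5 to 296 in replicates 5 to 7, a gap of 0.958 of the range. Vehicle replicate 4 in *Gadd45g* (0.606) and vehicle replicate 1 in *Cdkn1a* (0.757) did not pass that value. Without corticosterone replicate 8, the log2 fold change of *Gadd45g* was 0.10 in place of -0.07.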

How the results depend on the processing

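No paired analysis was possible because the sources used here give no pairing of mice between the groups. Leaving out 1 mouse in turn gave 0 to 4 of the 10 genes past the adjusted threshold (4 without corticosterone replicate 5, 1 without vehicle replicate 1), 0 to 1651 genes in all, 760 to 4696 genes at an unadjusted p under 0.05, and 7 to 25 list genes. With all mice, 1 gene passed; this was 63 with DESeq2, 79 with no filter on low counts (1 of the 10 genes, and 2445 genes at an unadjusted p under 0.05), 0 with at least 10 counts in every library (1330 genes at an unadjusted p under 0.05) and 38 with the ambiguous share as a covariate. With that covariate the log2 fold change turned to -0.012 for *Mdm2*, 0.78 for *Gadd45g*, -2.2e-05 for *Apaf1*, 0.055 for *Cdkn2d*, 0.13 for *Gadd45b*, 0.15 for *Gtse1* and -0.036 for *Utp14a*; the cause was not tested. With 1 mouse left out it ranged from -0.0052 to 0.070 for *Mdm2*, -0.055 to 0.057 for *Cdkn1b*, -0.29 to 0.12 for *Gadd45g* and -0.058 to 0.087 for *Btg2*. *Cdkn1a*, *Ccng1*, *Ccnd1* and *Trp53* kept their direction in all 16 alternatives. With the longest transcript as length, *Ccnd1* had 11.1, *Mdm2* 13.2, *Trp53* 7.34 and *Gadd45a* 2.30 CPM per kb after vehicle, and *Cdkn1a* 8.27 in place of 4.84. The groups of 2 of the 10 genes did not overlap under each of 3 scalings. Counting error alone gives a coefficient of variation of 14.6% for *Cdkn1c*, against 49.4% and 35.2% among the vehicle and corticosterone mice.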
